A study of Mus musculus with 12 samples.

Results

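The genes followed here are 7 genes of the MHC class II pathway, H2-Aa, H2-Ab1, H2-Eb1, H2-DMa, H2-DMb1, Cd74 and Ciita, read in every library of a study of Ppy-expressing γ-cells of the mouse islet. They were chosen by their UMI counts in the immune and hormone-expressing cells of the single-cell libraries, and were found by symbol, all 7 of them, among the 31055 genes of the single-cell matrices and among the 45808 genes of the bulk table. Because of that choice their levels in single cells are given as a description, with no test of the genes as a group. The single-cell data are 4 libraries from 2-month-old Ppy-rtTA; R26-YFP mice of mixed background that received doxycycline (1 mg/ml) from the age of 1 month. Doxycycline activates rtTA, which in this knock-in line replaces the coding sequence of 1 Ppy allele, so YFP marks cells in which the Ppy promoter was active. YFP+ and YFP- cells were sorted from dissociated islets pooled over several mice, in 2 experiments, and each fraction gave 1 library per experiment (YFP+ 1, YFP+ 2, YFP- 1 and YFP- 2). The bulk data are YFP+ cells of 2-month-old mice of mixed background, 5 γ-cell libraries from Ppy-rtTA;TetO-Cre;R26-YFP mice and 3 δ-cell libraries from Sst-Cre;R26-YFP mice, in which Cre is driven from Sst. The labels give doxycycline for both bulk groups. The γ-cell libraries were read paired-end on one sequencer model and the δ-cell libraries single-end on another, so group and sequencing cannot be told apart.

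MHC class II molecules display peptides from ingested proteins to CD4+ T cells, and their genes are known for high expression in professional antigen-presenting cells: dendritic cells, macrophages and B cells. H2-Aa and H2-Ab1 encode the α and β chains of the I-A molecule, and H2-Eb1 the β chain of I-E. Cd74 encodes the invariant chain, which occupies the groove and guides new class II molecules to endosomes. H2-DMa and H2-DMb1 encode the chains of H2-DM, which exchanges the remnant of the invariant chain for peptide, and Ciita encodes the transactivator that switches the whole group on. Islets hold resident macrophages, and RNA released from broken cells is captured together with the cells of a droplet library, so UMIs of a gene can be read in a cell that does not express it.

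The class II genes share promoter elements, an X box and a Y box, which are bound by the RFX and NF-Y complexes and to which Ciita is recruited. The RefSeq promoter table (GRCm38.p6) held 1 entry each for H2-Aa, H2-Eb1 and H2-DMb1 and 2 for H2-DMa, and no entry for H2-Ab1, Cd74 or Ciita. The 4 genes with an entry lie in the class II region of chromosome 17. Within the 250 bases before the start, a box GNAAC followed by ATTGG after 20 to 30 bases, read in the direction of the gene, was found in the entries of H2-Aa, H2-Eb1 and H2-DMb1. The stretch of each is printed to show the arrangement that these members have in common, with both boxes in capitals and 10 bases on each side.

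H2-Aa, chr17:34287857-34287914, minus strand: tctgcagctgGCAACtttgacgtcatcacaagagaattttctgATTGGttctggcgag
H2-Eb1, chr17:34305766-34305822, plus strand: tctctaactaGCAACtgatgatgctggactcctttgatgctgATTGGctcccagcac
H2-DMb1, chr17:34153087-34153144, plus strand: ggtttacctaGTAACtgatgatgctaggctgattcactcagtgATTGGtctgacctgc

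The bases between the boxes numbered 28, 27 and 28, and the second box ended 43, 54 and 56 bases before the start. Of all 32851 promoters of the table, 0.801% held this arrangement, whose letters and spacing were set after these sequences had been seen. The fixed form AGCAAC, on either strand, was found in the window of H2-Eb1 and not in those of H2-Aa and H2-DMb1, against 12.2% of all promoters, and ATTGG, on either strand, was in 33.8% of all promoters. The same arrangement was found in H2-Eb2, H2-Oa and H2-Ob, further class II genes outside the 7, and it was not in the windows of H2-DMb2, of the 2 entries of H2-DMa, or of the hormone genes Ppy, Gcg and Sst.

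The 4 single-cell libraries held 5982 cells with 10683494 to 18330975 UMIs (unique molecular identifiers, each standing for a captured transcript) and a median of 4237 to 8338 UMIs per cell. After 128 cells had been marked as doublets, 5854 cells fell into 4 clusters led by Ppy, Gcg, Sst or Ins2 and into 1382 other cells, which were clustered again. The class II genes were kept out of the genes used for clustering. Pairs of libraries shared 1 to 6 cell barcodes. The fraction of cells outside the hormone clusters was 3.41% and 8.35% in the YFP+ libraries and 25.8% and 51.8% in the YFP- libraries. The 7 genes together took 37.4 and 74.3 CPM (UMIs in each 1000000) in YFP+ 1 and YFP+ 2 and 1904 and 4686 CPM in YFP- 1 and YFP- 2. Most of these UMIs lay in few cells. In YFP- 1 the 20 dendritic-like cells led by Xcr1 held 30.9% of the class II UMIs, and in YFP- 2 the 52 such cells held 22.6% and the 118 macrophage-like cells 21.5%. The hormone clusters, with 1071 and 783 cells, held 1.56% and 3.81%. In the YFP+ libraries, which had 438 and 856 class II UMIs in all, a single cell of the cluster led by Ear2 and Lyz1 held 95 UMIs in YFP+ 1, and 4 such cells and 4 macrophage-like cells held 279 and 294 in YFP+ 2. In YFP+ 1, 19 cells of an unnamed cluster led by Pyy and Ppy held 230, or 52.5%. The hormone clusters, with 1246 and 1372 cells, held 24.9% in YFP+ 1 and 14.0% in YFP+ 2.

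In the YFP- libraries the class II genes were read at their highest levels in dendritic-like cells, in macrophage-like cells and in an unnamed cluster led by Ear2 and Lyz1. The sum of the 7 genes was 55129 CPM in 72 dendritic-like cells led by Xcr1, a marker of cross-presenting dendritic cells, 43573 in 77 cells of the Ear2 and Lyz1 cluster and 36050 in 149 macrophage-like cells led by Pf4 and C1qc. A second dendritic-like cluster of 28 cells, led by Ccl22 and Ccr7, genes of migrating dendritic cells, held 34552 CPM, and 20 B-like cells held 21878. The Xcr1 cluster stood first in both, at 68370 in YFP- 1 and 46541 in YFP- 2, and the B-like cluster held 26547 and 17635. The Ccr7 cluster held 42057 in YFP- 1 and 17602 in YFP- 2, so its place in this order was not the same in both libraries. The macrophage-like cluster held 44161 and 34111, and the Ear2 and Lyz1 cluster 44842 and 42937.

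**Figure D1:**
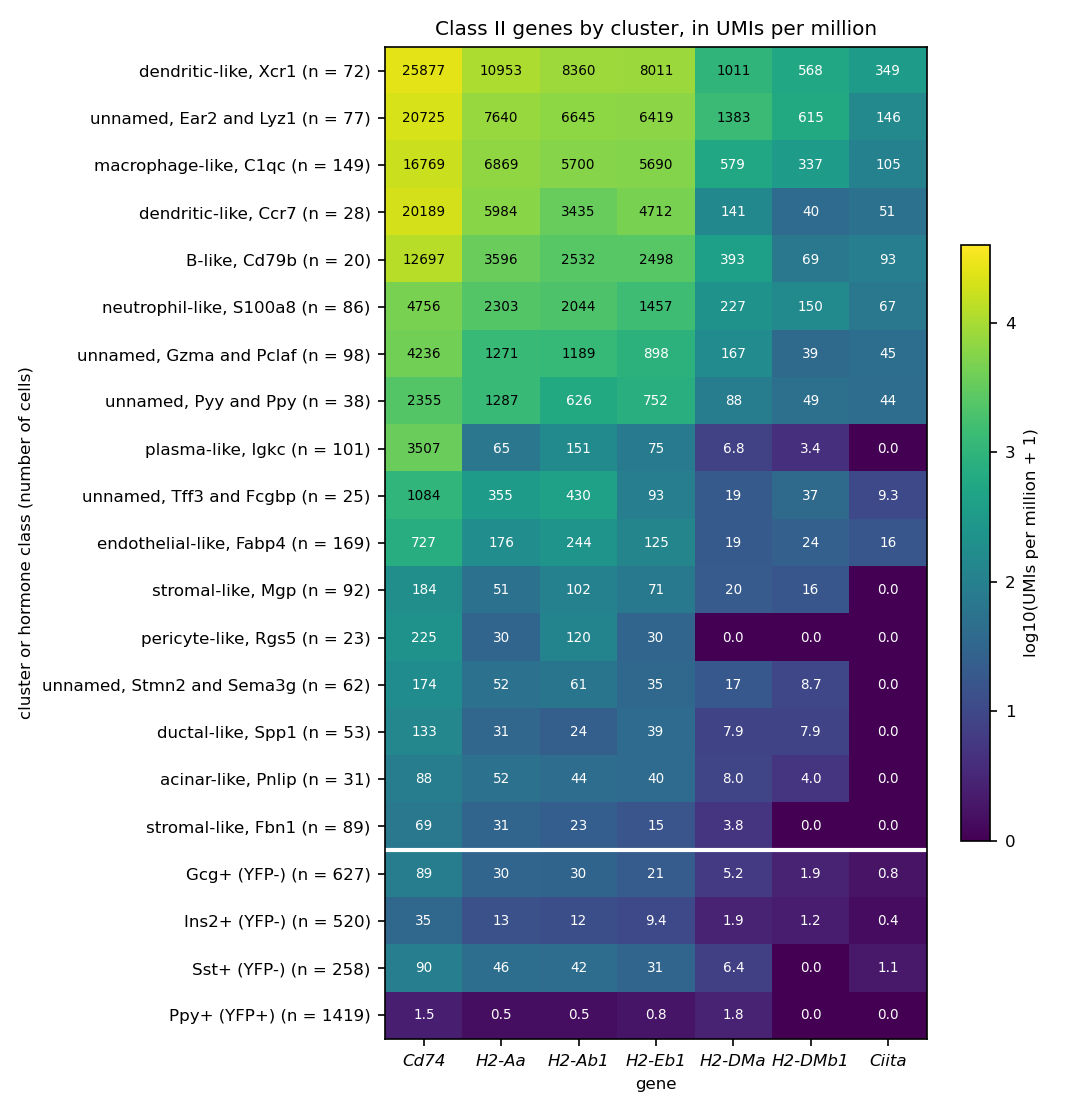
Level of each class II gene in CPM (number and colour, on a log10 scale) in the 17 clusters outside the hormone clusters, both YFP- libraries summed, and below the white line in the Gcg+, Ins2+ and Sst+ cells of the YFP- libraries and the Ppy+ cells of the YFP+ libraries. Cd74 runs from 25877 in dendritic-like Xcr1 cells to 69 in stromal-like Fbn1 cells, and it is lowest, among all that is drawn, in the Ppy+ cells of the YFP+ libraries.

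Other immune clusters were lower or mixed. Neutrophil-like cells led by S100a8 held 39384 CPM in the 12 cells of YFP- 1 and 6574 in the 74 cells of YFP- 2. Per UMI of Lyz2, C1qb, C1qc, Tyrobp and Fcer1g summed, they held 23.2 and 1.28 class II UMIs. The name rests on the leading genes of the whole cluster, and whether the 12 cells are neutrophils was not tested. The unnamed cluster led by Gzma and Pclaf held cells with B-cell genes and cells with T or NK genes. Its cells with more UMIs of the B-cell list held 8271 in YFP- 1 (17 cells) and 9561 in YFP- 2 (59 cells). Those with more UMIs of the T or NK list held 34.5 in YFP- 1, from 2 UMIs in 4 cells, and 2882 in YFP- 2 (18 cells). T cells of the mouse are known to make little class II, and 13 of the 18 cells had at least 1 class II UMI.

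Plasma-like cells, antibody-secreting cells that are known to switch off Ciita, had far more Cd74 relative to the other members than any antigen-presenting cluster. Cd74 stood at 4028 CPM in YFP- 1 (51 cells) and 2454 in YFP- 2 (50 cells), while H2-Aa stood at 51.2 and 93.1, H2-Ab1 at 155 and 141, H2-Eb1 at 58.0 and 110, H2-DMa at 1.71 and 17.2, H2-DMb1 at 1.71 and 6.89 and Ciita at 0 in both. Per 100 UMIs of H2-Aa these cells held 5391 UMIs of Cd74 (95% interval 4150 to 7135, from 3073 and 57 UMIs). The same ratio was 236 (228 to 245) in the Xcr1 cluster, 244 (233 to 255) in macrophage-like cells, 271 (257 to 286) in the Ear2 and Lyz1 cluster and 353 (311 to 402) in B-like cells. The intervals here and for all levels in CPM are exact and cover counting error only.

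The 2 dendritic-like clusters differed in the peptide-loading genes and in Ciita. In the Xcr1 cluster H2-DMa stood at 969 CPM in YFP- 1 and 1039 in YFP- 2, H2-DMb1 at 538 and 587 and Ciita at 323 and 365. In the Ccr7 cluster H2-DMa stood at 179 and 55.2, H2-DMb1 at 48.9 and 18.4 and Ciita at 57.1 and 36.8. Relative to H2-Aa, the Ccr7 cluster held 2.36 UMIs of H2-DMa per 100 (1.52 to 3.50), 0.661 of H2-DMb1 (0.265 to 1.37) and 0.850 of Ciita (0.388 to 1.62). The Xcr1 cluster held 9.23 (8.32 to 10.2), 5.19 (4.52 to 5.92) and 3.18 (2.67 to 3.77). Each of these ratios was lower in the Ccr7 cluster in both YFP- libraries, with 13 to 52 cells per cluster and library. The 13 Ccr7 cells of YFP- 2 held 956 class II UMIs in all, so their values for H2-DMa, H2-DMb1 and Ciita rest on very few UMIs. H2-DMb1 was also low relative to H2-Aa in B-like cells, at 1.93 per 100 (0.703 to 4.25), whereas H2-DMa was not, at 10.9 (7.44 to 15.6). The highest ratio of H2-DMa was that of the Ear2 and Lyz1 cluster, at 18.1 (16.1 to 20.3). The other chains kept closer to H2-Aa, with H2-Ab1 at 57.4 per 100 in the Ccr7 cluster, the lowest of the immune clusters, and 93.6 in the Gzma and Pclaf cluster, the highest other than the plasma-like one. The value of the Ccr7 cluster came from 64.2 in YFP- 1 and 23.6 in YFP- 2.

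**Figure D2:**
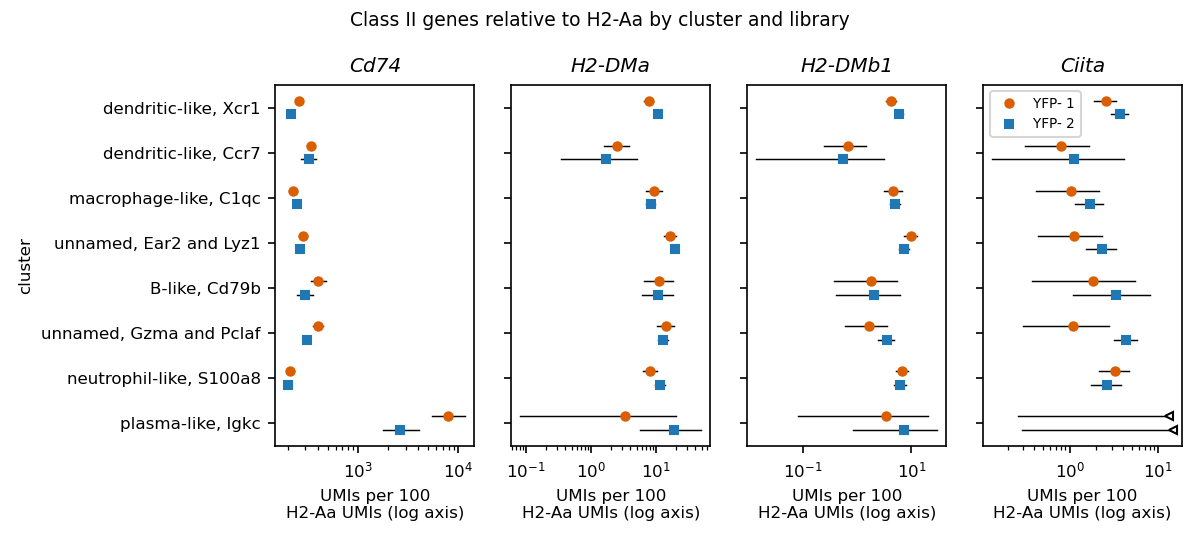
UMIs of Cd74, H2-DMa, H2-DMb1 and Ciita per 100 UMIs of H2-Aa (log axes) in 8 immune clusters of YFP- 1 (circles) and YFP- 2 (squares), with exact 95% intervals for counting error; open triangles stand at the upper limit where no UMI was read. Plasma-like cells lie far to the right for Cd74, at 5391 over both libraries, and dendritic-like Ccr7 cells to the left for H2-DMa and H2-DMb1, at 2.36 and 0.661.

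Outside the immune clusters the levels were lower. Endothelial-like cells held 1147 CPM in YFP- 1 and 1465 in YFP- 2, with Cd74 at 593 and 823. The cluster led by Tff3 and Fcgbp, goblet-cell genes, came from YFP- 2 alone and held 2027 CPM. The unnamed cluster led by Pyy and Ppy, which holds endocrine genes, stood at 1157 in YFP+ 1, 29.998 in YFP+ 2, 2809 in YFP- 1 and 5771 in YFP- 2, and in all but YFP+ 2 a few cells with 10 or more class II UMIs held most of these UMIs. They were 4 of 19 cells with 226 of 230 class II UMIs, 0 of 29 with 0 of 10, 1 of 7 with 192 of 197 and 14 of 31 with 1654 of 1698. All of them also held a UMI of an immune marker, but the other cells of the cluster were not counted for it. Stromal-like cells led by Mgp, pericyte-like, ductal-like and acinar-like cells and the cluster led by Stmn2 and Sema3g held 236 to 443 over both libraries. Without Ciita, ductal-like cells stood at 98.3 in YFP- 1 and 615 in YFP- 2, and Mgp cells at 675 and 299. The Stmn2 and Sema3g cluster had 1 class II UMI in its 16 cells of YFP- 1, so the order within YFP- 1 rests on few UMIs. Over both libraries stromal-like cells led by Fbn1 were the lowest, at 42.9 (11.7 to 110) in YFP- 1 and 198 (136 to 278) in YFP- 2. These fibroblast-like cells are not known to make class II without stimulation and were taken as the level against which hormone cells were read.

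In CPM, monohormonal islet cells, with 1 hormone above its threshold, were within or below the interval of that level once a few cells were set aside. Per cell, with those cells set aside, Gcg+, Ins2+ and Sst+ cells held 0.413, 0.659 and 0.178 class II UMIs in YFP- 1. In YFP- 2 they held 1.36, 1.69 and 0.543. Stromal-like Fbn1 cells, which had fewer UMIs in all, held 4 class II UMIs in 25 cells of YFP- 1 and 33 in 64 cells of YFP- 2. The order thus depends on the measure. In YFP- 1 the 7 genes stood at 47.6 CPM (39.7 to 56.5) in 315 Gcg+ cells, 29.6 (26.4 to 33.2) in 429 Ins2+ cells and 41.5 (26.3 to 62.2) in 129 Sst+ cells. In YFP- 2 they stood at 321 (299 to 344) in 312 Gcg+ cells, 414 (380 to 451) in 91 Ins2+ cells and 465 (399 to 538) in 129 Sst+ cells. Every class was higher in YFP- 2 than in YFP- 1, as was the whole library. The order of the classes was not the same in the 2 libraries, with Gcg+ cells highest in YFP- 1 and lowest in YFP- 2, and the intervals of Gcg+ and Sst+ cells overlapped in YFP- 1.

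In YFP- 2, 7 of 542 monohormonal cells had 10 or more class II UMIs and together held 57.3% of the class II UMIs of these classes. Without them the levels were 172 (156 to 189) in Gcg+ cells, 125 (106 to 147) in Ins2+ cells and 181 (141 to 229) in Sst+ cells. All were below the 198 of stromal-like Fbn1 cells of the same library, with Gcg+ and Sst+ inside its interval. The cut was made on the class II UMIs themselves and not in the stromal-like cells. It therefore cannot place hormone cells at or below the level of stromal-like cells. In YFP- 1 there was 1 such cell, an Ins2+ cell with 22 class II UMIs, and without it Ins2+ cells stood at 27.5. Over all hormone clusters and libraries, 11 cells had 10 or more class II UMIs, with a median of 49 and at most 296. All 11 also held a UMI of Ptprc or of the macrophage, dendritic or B-cell markers (C1qa left out), with a median of 13 such UMIs, against 1071 of the 4461 other cells of these clusters. Of the 11, 7 lay in YFP- 2, whereas the 4461 are pooled over all libraries. Library and depth thus cannot be told apart from this difference. Whether these are 2 cells in 1 droplet was not tested.

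γ-cells of the YFP+ libraries had low class II levels. In Ppy+ cells the 7 genes stood at 2.62 CPM (1.47 to 4.32, 15 UMIs in 671 cells) in YFP+ 1 and 7.70 (5.50 to 10.5, 40 UMIs in 748 cells) in YFP+ 2, where 1 cell held 20 of the 40 UMIs. Without that cell the level in YFP+ 2 was 3.85 (2.35 to 5.95). Cd74 had 0 UMIs in the 671 cells of YFP+ 1, which allows up to 0.524 CPM, and 16 in YFP+ 2. H2-Aa and H2-Ab1 had 0 UMIs in YFP+ 1 and 5 each in YFP+ 2, H2-Eb1 had 2 and 7, and H2-DMb1 and Ciita had 0 in both. The stromal-like Fbn1 cells of the YFP+ libraries had 1 UMI in 17 cells and 0 in 61 cells, with an upper limit of 25.2 CPM in the latter, so a difference from γ-cells was not detectable at this depth.

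The few cells of the same hormone class caught in a YFP- library were higher than those in a YFP+ library. In 10 Ppy+ cells of YFP- 2 the 7 genes stood at 166 CPM (66.6 to 341, 7 UMIs). Bihormonal Ppy+Gcg+ cells stood at 22.3 and 19.5 in YFP+ 1 and YFP+ 2, or 8.33 and 10.8 without 1 cell in each, and at 40.8 and 191 in YFP- 1 and YFP- 2. Ppy+Sst+ cells stood at 10.0 and 5.68 in the YFP+ libraries and at 81.0 and 264 in the YFP- libraries. In each of these classes both YFP- values were above both YFP+ values, except that Ppy+ cells of YFP- 1 were too few to read, and the fraction and its library cannot be told apart. With 2 libraries of each fraction no permutation test can give a two-sided p below 0.333, and none was run.

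**Figure D3:**
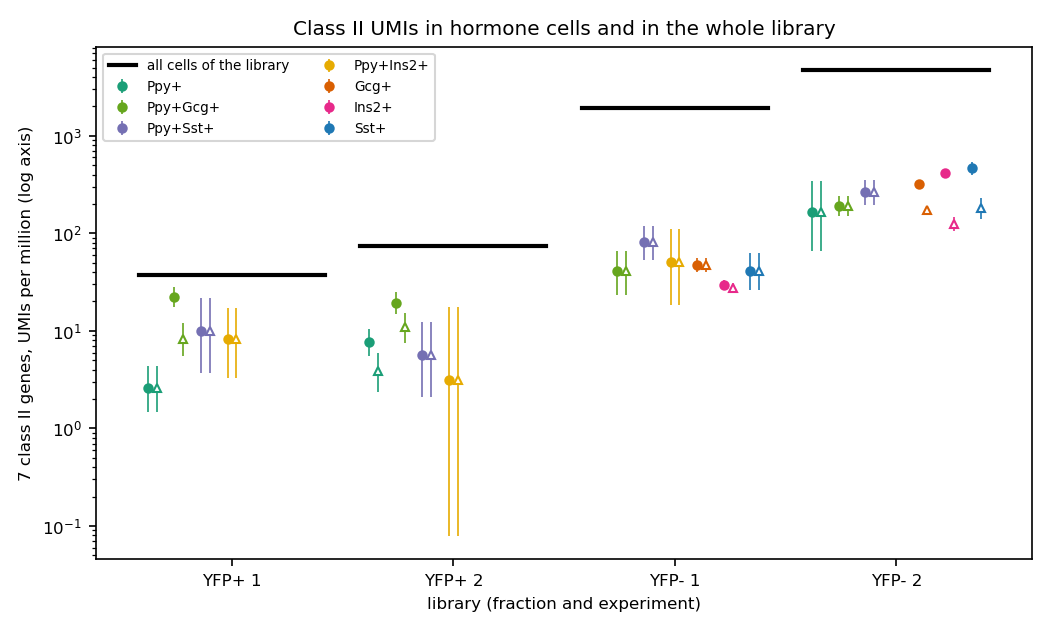
Summed level of the 7 class II genes in CPM (log axis) in each hormone class of each library, for all cells (filled circles) and for cells with fewer than 10 class II UMIs (open triangles), with exact 95% Poisson intervals, and in all cells of the library (black lines). Every class lies below its library's line, which rises from 37.4 in YFP+ 1 to 4686 in YFP- 2, and every class drawn for both fractions is higher in the YFP- than in the YFP+ libraries. Over all cells the 3 bihormonal classes are lower in YFP+ 2 than in YFP+ 1, with overlapping intervals. For cells with fewer than 10 class II UMIs, Ppy+Gcg+ cells are higher in YFP+ 2, at 10.8 against 8.33.

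The share of monohormonal cells with at least 1 class II UMI was 2.23% and 2.41% in the YFP+ libraries and 36.8% and 62.0% in the YFP- libraries. Stromal-like Fbn1 cells had shares of 5.88% (17 cells), 0% (61 cells, which allows up to 4.92%), 16.0% (25 cells) and 39.1% (64 cells) in the same order. The median depth was 7650.5, 5935.5, 12177 and 5920.5 UMIs in the hormone cells and 3115, 2372, 3823 and 2503.5 in the stromal-like cells. With every cell thinned to 1000 UMIs the shares of hormone cells were 0%, 0.535%, 4.46% and 16.1%, and no stromal-like Fbn1 cell of the YFP+ libraries kept a class II UMI. In the YFP- libraries the thinned shares of stromal-like Fbn1 cells were 16.0% and 23.4%, above those of the hormone cells. Without thinning the hormone cells had the higher shares there, so the order depends on depth. The source of these UMIs was not tested. In YFP- 1 the stromal-like share rests on 4 class II UMIs in 25 cells.

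The level in hormone cells was next set against the level in the whole library, gene by gene. For cells with fewer than 10 class II UMIs, the 7 genes in monohormonal cells stood at 1.69% (1.53 to 1.85) of the library level in YFP- 1 and 3.39% (3.13 to 3.66) in YFP- 2. Marker genes of non-endocrine cells with at least 50 CPM in the library had medians of 2.91% (22 genes) and 4.59% (33 genes). Cd74 was at 1.46% and 3.06%, H2-Aa at 1.96% and 2.86%, H2-Eb1 at 1.77% and 3.00%, and H2-Ab1 at 1.62% and 5.30%. The antibody gene Igkc, which islet cells do not rearrange, was at 1.72% and 3.81% and Lyz2, a macrophage gene, at 2.20% and 3.56%. H2-DMb1 was at 1.98% and 4.87% and Ciita at 1.19% and 1.85%. The share was below the median of the marker genes for 6 of the 7 in YFP- 1 and for 5 in YFP- 2. That median depends on the mix of markers. In YFP- 1, Dcn, Mzb1, Jchain, Fabp4 and S100a8 stood at 0.661%, 0.831%, 0.976%, 1.39% and 1.46%, below the 1.69% of the 7 genes. Ighm and Col3a1 stood above it, at 1.73% and 2.04%. The acinar genes Ctrb1, Pnlip and Cpa1 stood at 2.87%, 2.94% and 3.45%, and Krt8 and Krt18 at 50.8% and 43.7%. The cut at 10 class II UMIs also lowers the class II shares by construction, so the counts of 6 and 5 do not decide their place. Over all monohormonal cells the 7 genes stood at 1.77% in YFP- 1, against a marker median of 2.93%. Over all cells of YFP- 2 they stood at 6.85% in Gcg+, 8.84% in Ins2+ and 9.92% in Sst+ cells. The marker medians there were lower, at 5.53%, 4.24% and 5.40%. In the YFP+ libraries the 7 genes, in cells with fewer than 10 class II UMIs, stood at 6.96% (3.90 to 11.5) and 5.19% (3.17 to 8.01) of the library level. The stromal gene Dcn stood there at 0.947% (0.195 to 2.77) and 2.41% (1.20 to 4.32), and in YFP+ 2 Igkc was at 2.20% (1.42 to 3.25) and Lyz2 at 2.47% (0.993 to 5.09). The markers Krt7, Krt8, Krt18 and Spp1 stood at 96.1% to 120% in YFP+ 1. The class II share was above that of Dcn in YFP+ 1 beyond counting error. Of its 15 UMIs, 13 were of H2-DMa and 2 of H2-Eb1, so this difference rests on H2-DMa and not on the group.

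H2-DMa was the member with the highest share in YFP- 1, at 6.31% (4.09 to 9.32) of the library level, against 4.37% (2.59 to 6.91) in YFP- 2. It also gave 13 of the 15 class II UMIs of Ppy+ cells in YFP+ 1, where Cd74, the gene with the most UMIs in every antigen-presenting cluster, had none. Its level there was 2.27 CPM (1.21 to 3.88), or 63.2% of the library level (33.7 to 108), and 1.35 in YFP+ 2. In the YFP- libraries H2-DMa stood at 3.66 and 6.84 in Gcg+ cells, 1.36 and 6.28 in Ins2+ cells and 1.80 and 12.8 in Sst+ cells. H2-DMa (chr17:34119541-34139101, plus strand) overlaps Brd2 on the opposite strand in the annotation, and how reads of such a pair were assigned is not given in the sources used here. C1qa, one of 3 genes of the complement component C1q that macrophages express together, also had a high share, at 62.8% and 34.3% in YFP- 1 and YFP- 2, and Ppy+ cells of YFP+ 1 held 206 UMIs of C1qa beside 1 each of C1qb and C1qc.

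**Figure D4:**
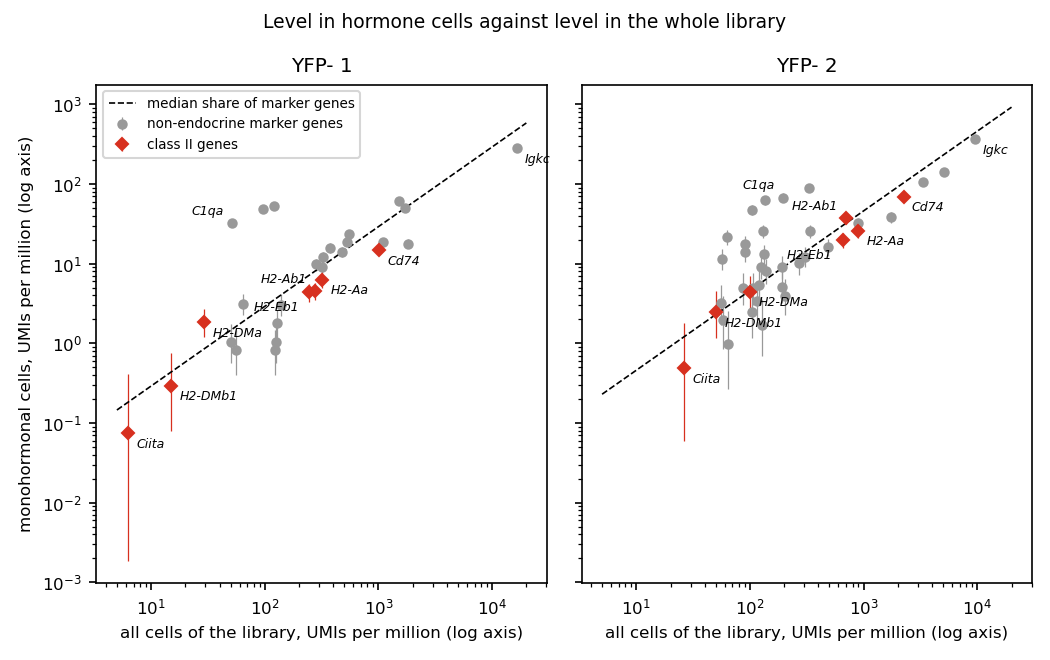
Level in monohormonal cells with fewer than 10 class II UMIs against the level in all cells of the library, both in CPM on log axes, for the 7 class II genes (red) and marker genes of non-endocrine cells (grey), with exact 95% Poisson intervals; genes without a UMI in the hormone cells are not drawn. The dashed line is the median share of the marker genes, 2.91% in YFP- 1 and 4.59% in YFP- 2, and 6 of the 7 class II genes lie below it in YFP- 1 and 5 in YFP- 2, with H2-DMa above it in YFP- 1 and C1qa far above it in both. Keeping only cells with fewer than 10 class II UMIs lowers the class II genes by construction.

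Because C1qa was read in hormone cells of every library, class II UMIs were set against 5 other myeloid genes (Lyz2, C1qb, C1qc, Tyrobp and Fcer1g). Monohormonal cells held 1.07 (0.482 to 2.40), 1.74 (1.02 to 3.04), 4.08 (3.31 to 5.06) and 4.36 (3.88 to 4.92) class II UMIs per UMI of these genes in YFP+ 1, YFP+ 2, YFP- 1 and YFP- 2. The whole libraries held 2.46, 0.919, 8.09 and 3.21, so the ratio in hormone cells was below that of its library in YFP+ 1 and YFP- 1 and above it in the other two. For cells with at most 2 class II UMIs the ratio was 0.870 (0.453 to 1.66) in YFP+ 2 and 2.16 (1.78 to 2.63) in YFP- 2. This cut limits the class II UMIs of a cell and not those of the myeloid genes. It therefore lowers the ratio by construction and cannot place hormone cells below the library. Within YFP- 2 the ratio was 1.35 in macrophage-like cells, 3.05 in the Ear2 and Lyz1 cluster and 31.9 in dendritic-like Xcr1 cells, and that of hormone cells lay within this span. With C1qa included, the ratios of hormone cells were 0.0682, 0.183, 0.828 and 2.35.

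Sums of UMIs per class and library were also compared in pairs with edgeR. Ciita was too low to be tested, and the other 6 members were among 10555 genes. Against Ppy+ cells of the YFP+ libraries, 5 of the 6 were called higher in Gcg+ cells (6.88% of all genes tested), 5 in Ins2+ cells (13.9%) and 4 in Sst+ cells (6.57%) of the YFP- libraries. H2-DMa was not among them in any pair. H2-DMb1 was called in the first 2 pairs, with 0 UMIs in Ppy+ cells. The other members called also had few UMIs there, at most 16, for Cd74 in YFP+ 2. All of them passed the filter through the YFP- sums alone, so their calls against Ppy+ cells are no test. These pairs compare libraries as well as cells, and the members were chosen by UMI counts in these libraries, so the calls are given as a description. Without the experiment as a replicate block, 0 members were called in the Gcg+ and Sst+ pairs. Among classes of the same libraries, 4 members were called higher in Ins2+ than in Gcg+ cells (11.4% of all genes), 1, Cd74, in Ins2+ than in Sst+ cells (7.72%) and 0 in Sst+ than in Gcg+ cells (6.19%). For the last pair, 0 of the 6 had an unadjusted p under 0.05 with edgeR, and DESeq2 also called 0. These calls rest on the scaling. The TMM factors were 0.514 and 0.697 for the Ins2+ sums and 1.14 to 1.77 for the Gcg+ and Sst+ sums. With total UMIs as the scaling, 0 members were called in any of these 3 pairs, and the median log2 difference of all genes went from -0.01 to -1.05 between Ins2+ and Gcg+ cells. Without the cells that had 10 or more class II UMIs, 0 members were called between Ins2+ and Gcg+ cells.

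Genes of the wider pathway were read in the same 21 clusters and classes. Of the 6 other class II genes listed, 4 were measured in the single cells. H2-DMb2, the second β chain of H2-DM, was highest in the Ear2 and Lyz1 cluster at 489 CPM, H2-Oa and H2-Ob, the chains of its inhibitor H2-O, in the Xcr1 cluster at 234 and 137, and H2-Eb2 in the Ccr7 cluster at 62.2. Their highest level in a hormone class was 1.72 CPM. All 5 co-stimulation genes, which give T cells their second signal, were highest in a dendritic-like cluster, Cd83 at 294, Cd40 at 153 and Icosl at 67.8 in the Ccr7 cluster and Cd86 at 147 in the Xcr1 cluster. Of these, Cd83 reached 6.36 CPM in a hormone class and the others at most 0.575.

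The transcription factors below Ciita did not share this pattern. Rfxap, a subunit of the RFX complex, stood at 6.59 CPM in Ppy+, 7.86 in Gcg+, 2.34 in Ins2+ and 8.47 in Sst+ cells, against 34.7 in B-like cells, its highest. The NF-Y subunits Nfyb and Nfyc stood at 8.84 to 24.4 and 5.98 to 10.9 in the hormone classes and at most 74.7 and 25.4 elsewhere, and Creb1 at 9.10 to 35.0 and at most 105. UMIs of all 7 listed factors were read in all 4 hormone classes. Ciita had 0 UMIs in the Ppy+ cells of both YFP+ libraries. In monohormonal cells of YFP- 1 it had 2 UMIs, and it was also read in those of YFP- 2. Whether the low counts of these genes come from the cells themselves or from free RNA was not tested.

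Of 6 measured genes of peptide loading and turnover, Ctsb, Ctsd and Lgmn, proteases of endosomes and lysosomes, were highest in macrophage-like cells at 3084, 585 and 531 CPM and were also read in hormone cells, Ctsb at 38.3 to 124 and Ctsd at 37.4 to 78.4. Ctss, the cathepsin that trims the invariant chain, was highest at 1363 in the Ear2 and Lyz1 cluster and stood at 0.183 in Ppy+, 6.13 in Gcg+, 1.47 in Ins2+ and 1.06 in Sst+ cells. Class I genes, which present peptides made in the cell itself, were read in hormone cells over a wide range of levels, with Nlrc5 at most at 0.192 CPM. H2-D1, a class I heavy chain, stood at 250.03 CPM in Ppy+, 224 in Gcg+, 73.9 in Ins2+ and 356 in Sst+ cells, and B2m, the light chain, at 72.4, 122, 52.1 and 106. H2-K1 stood at 49.7 to 155 and the immunoproteasome subunit Psmb8 at 5.98 to 41.3. Their highest levels, 5424 for H2-D1, 9391 for B2m, 2678 for H2-K1 and 1220 for Psmb8, were all in the dendritic-like Ccr7 cluster. Of the 11 genes of the interferon-γ response, Irf8, a factor of dendritic and B cells, was highest at 1654 in the Xcr1 cluster and at most 2.87 in hormone cells, whereas Jak1 and Ifngr1, parts of the receptor pathway, stood at 21.9 to 57.2 and 3.21 to 9.53 in hormone cells. Gbp7 was highest in endothelial-like cells at 301.

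Between the hormone classes, 0 of the 7 transcription genes passed in any of the 6 pairs, in which 11.6% to 25.8% of all genes were called. Of 9 class I genes tested, at most 2 passed in a pair, Ins2+ against Ppy+ cells, in which 25.8% of all genes did. With so few genes, these counts do not set the lists apart from all genes. Against Ppy+ cells, Ctss, Irf8 and Psmb9 were called higher in Gcg+ and in Ins2+ cells, named here after their values were seen, in the pairs in which 6.88% and 13.9% of all genes were called higher. These pairs compare libraries as well as cells. Irf8, Ctss and Cd83, at 0, 0.183 and 1.37 CPM in Ppy+ cells, passed the filter through the YFP- sums alone. Their calls against Ppy+ cells are therefore no test. Of the same lists, Cd83 was called higher and Irf1 lower in Gcg+ cells. In Ins2+ cells Jak1 was called higher and Ctsb, Lgmn, Cd83 and H2-D1 lower, and in Sst+ cells Ctsb and Ctsl lower.

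The genes whose pattern was most like that of the 6 members other than Ciita, over 43 combinations of cluster or class and library with at least 20 cells, were Cd52, Ctss, Arhgdib, Coro1a, Lcp1, Inpp5d, H2afj, Hcls1, Spi1 and Lyn, with Pearson's r of 0.907 to 0.850 on log2(CPM + 1) among 15244 genes. Ciita itself had r = 0.833 and stood at rank 24. The combinations share libraries and depth, and r is given as a description.

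In the bulk libraries, with 14633838 to 31784878 counts in γ-cells and 7641916 to 11773598 in δ-cells, the class II genes were read in both cell types and did not separate them. Cd74 stood at 35.5, 31.5, 56.4, 25.0 and 102 CPM in the 5 γ-cell libraries and at 428, 168 and 24.8 in the 3 δ-cell libraries. The third δ-cell library lay just below the lowest γ-cell library and the first 2 lay above all of them, so the groups overlapped. The difference, γ minus δ after TMM normalization, was -1.76 on the log2 scale (SE 0.69) and did not pass at an adjusted p of 0.0525 with edgeR. None of the 7 members passed, of 17926 genes tested, of which 35.0% did (20.7% higher and 14.2% lower in γ-cells; 3715 and 2553 genes, or 3055 and 3746 with upper-quartile normalization). An unadjusted p under 0.05 was reached by 2 of the 7, against 10479 of all 17926 genes, and DESeq2 called 1, H2-DMb1. Leaving out 1 library gave 2 calls without the third γ-cell library, 1 without the fifth and 3 without the third δ-cell library. In the same fits 6255 of 17831, 6141 of 18058 and 5863 of 17934 genes were called.

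H2-Aa stood at 7.46, 8.97, 16.7, 6.22 and 26.8 in γ-cells and at 72.0, 36.4 and 4.61 in δ-cells (log2 difference -1.24, SE 0.69, adjusted p = 0.158 with edgeR). H2-Ab1 ranged over 2.36 to 41.1 in γ-cells and 3.95 to 59.3 in δ-cells (-0.53, SE 0.85), and H2-Eb1 over 5.31 to 18.9 and 2.26 to 24.7 (0.18, SE 0.64). H2-DMb1 was read at 1.04, 0.811, 1.97, 0.318 and 1.30 in γ-cells and 7.85, 2.89 and 1.41 in δ-cells (-1.61, SE 0.65, adjusted p = 0.0608 with edgeR). For all 7 genes the third δ-cell library was the lowest or within the range of the γ-cell libraries, and the first δ-cell library was the highest of all 8 libraries for all 7 genes.

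H2-DMa was the most even member, at 5.16, 3.58, 7.53, 8.03 and 7.995 CPM in γ-cells and 12.3, 5.86 and 2.26 in δ-cells (log2 difference 0.21, SE 0.48). For H2-DMa and H2-Eb1 the fitted difference was above 0 while the mean CPM was lower in γ-cells, at 6.46 against 6.81 and 11.1 against 12.0, and with upper-quartile normalization both differences were below 0, at -0.12 and -0.16. Ciita stood at 1.20, 0.477, 3.95, 0 and 1.30 in γ-cells, with 0 to 86 counts, and at 13.1, 3.99 and 1.69 in δ-cells (-1.89, SE 1.05, adjusted p = 0.154 with edgeR). The fourth γ-cell library thus had 0 counts of Ciita and 552 counts of Cd74. Per kilobase of exon, which allows genes to be compared, the median γ-cell level was 21.2 CPM for Cd74, 4.47 for H2-Eb1, 4.21 for H2-Ab1, 2.36 for H2-Aa, 2.18 for H2-DMa, 0.618 for H2-DMb1 and 0.125 for Ciita. The corresponding δ-cell medians were 100.2 for Cd74, 13.4 for H2-Ab1, 9.59 for H2-Aa, 4.59 for H2-Eb1, 1.72 for H2-DMb1, 1.70 for H2-DMa and 0.419 for Ciita. Ciita overlaps Dexi and H2-Eb1 overlaps an antisense gene on the opposite strand, and the strand setting of the counting is not given in the sources used here.

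**Figure D5:**
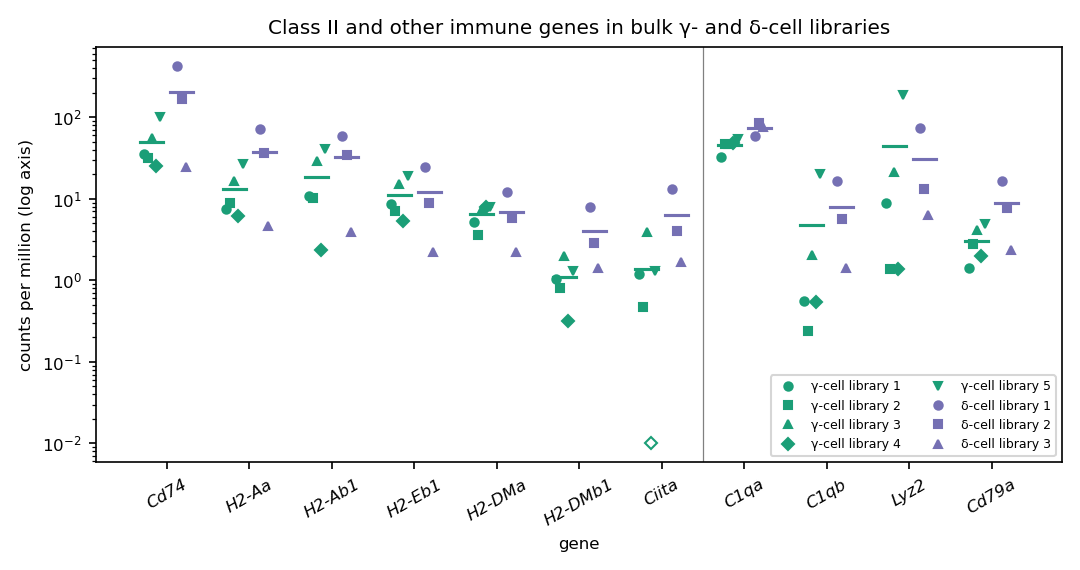
Level in CPM (log axis) of the 7 class II genes and of 4 other immune genes in the 5 γ-cell libraries (green) and the 3 δ-cell libraries (purple), with group means as bars; the open symbol at the bottom is a library with 0 counts. The first δ-cell library is the highest of the 8 for all 7 class II genes, with Cd74 at 428, and the third δ-cell library, at 24.8, lies just below the lowest of the γ-cell libraries.

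Markers of other cells were read in the same bulk libraries, and fewer immune cells cannot be told apart here from less class II RNA per cell. The summed level of the 10 macrophage markers was 46.8 to 328 CPM in γ-cells and 96.0 to 205 in δ-cells, and that of the 10 dendritic markers 21.9 to 45.8 and 26.5 to 35.9. The 8 B-cell markers summed to 11.6 to 162 in γ-cells and 31.4 to 323 in δ-cells, and the 6 plasma-cell markers to 23.3 to 399 and 111 to 756. The fifth γ-cell library, with the most Cd74 of the γ-cells, also had the most of the macrophage, B-cell and plasma-cell lists among them, with Lyz2 at 190 CPM against 1.36 to 21.1 in the other 4. The same library had the least of the dendritic list among the γ-cells, at 21.9. For the T or NK list it stood at 24.1, below the 42.7 of the third γ-cell library. The first δ-cell library had the most of the macrophage and plasma-cell lists among the δ-cells, and the third, with the least Cd74, had the most of the B-cell list. No list had a gene at 0 in all 8 libraries. The acinar list ranged over 1982 to 11234 in γ-cells and 19891 to 85062 in δ-cells, with all 9 genes called lower in γ-cells. The defining hormones followed the labels, with Ppy at 87365 to 116446 in γ-cells and 10889 to 16501 in δ-cells and Sst at 7119 to 11511 and 69804 to 101118. The part of these cells in the class II levels was not tested.

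Over the 8 libraries, the genes most like the 6 summed members were Lgals3, Ctsc, Pdlim1, Cd79a, Xdh, Kitl, Angpt1, Aldh1l2, Anxa2 and Rps10, with Pearson's r of 0.968 to 0.910 among 11480 genes. Cd79a, part of the B-cell receptor, stood at 1.42 to 4.92 CPM in γ-cells and at 16.5, 7.64 and 2.35 in δ-cells. C1qa, read in hormone cells of the single-cell libraries too, had r = 0.291 and stood at 33.0 to 54.1 and 59.1 to 85.8.

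Of the fixed lists, 3 of 7 class II transcription genes passed between γ- and δ-cells, Rfx5 and Rfxap higher and Rfxank lower in γ-cells, each a subunit of the RFX complex. With 35.0% of all genes called, this count was near the background, as were the 3 of 11 interferon-γ response genes given next. Rfxap stood at 42.4 to 49.8 CPM in γ-cells and 1.98 to 3.93 in δ-cells (log2 difference 4.18, SE 0.21, adjusted p = 1.2e-07 with edgeR), so these groups did not overlap. Rfxank stood at 10.7 to 11.7 and 28.4 to 33.8 (-1.20, SE 0.13). The single cells did not show these differences. Rfxap was not called between Sst+ and Ppy+ cells (log2 difference, Sst+ minus Ppy+, -0.47, adjusted p = 0.670 with edgeR), at 8.47 and 6.59 CPM. Rfx5 and Rfxank, at 0.81 and -1.18, were not called either and pointed against the bulk directions. In bulk, group and sequencing cannot be told apart. The median log2 difference of that list was -0.18, beside -0.06 over all genes tested. Of 11 interferon-γ response genes, Ifngr2, Jak2 and Socs1 were higher in γ-cells (median 0.01). Jak2, a kinase of the receptor, stood at 31.2 to 53.0 and 16.9 to 19.6 CPM (1.66, SE 0.18) and Socs1, its inhibitor, at 1.27 to 5.74 and 0 to 0.262. Cd40 was lower in γ-cells among 4 co-stimulation genes tested. Genes of these lists are named here after their values were seen. Of 11 class I genes, 7 genes of peptide loading and turnover and 3 other class II genes tested, 0 passed with edgeR.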

How the data were processed

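Single-cell libraries (4, 10x 3′ chemistry) and bulk libraries (5 of γ-cells, 3 of δ-cells) were read from the tables the authors deposited, as raw counts: UMI counts per gene and cell from Cell Ranger on mm10, and read counts per gene from STAR 2.7.2b and HTSeq 0.9.1 on GRCm38.p6. The bulk table also held 6 columns of other cell types, which were not used here. The members and all gene lists were chosen with earlier results of these data known.

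Cells were clustered with Seurat 5.3.0 (resolution 0.1, then 0.5 for the cells outside the hormone clusters) without class II genes. Scrublet marked 8 of 5982 cells, too few to have worked, so a neighbour caller set to 2% marked a further 120, and all 128 were left out. Cells were classed by the log-normalized level of Ppy, Gcg, Ins2 and Sst. Levels are CPM, the UMIs or counts in each 1000000, and 95% intervals are exact Poisson or binomial ones that cover counting error only. A count of 0 is given with the limit of 3 counts or the exact upper bound.

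Sums of counts per class and library were tested with edgeR 4.0.16 (quasi-likelihood test, TMM, experiment as a block) and called at a Benjamini-Hochberg adjusted p of 0.05 and a difference of 0.5 on the natural log scale. Bulk counts with a mean of at least 5 were tested likewise, without a block, and called at a log2 difference of 1. DESeq2 1.42.0 was an alternative, and the edgeR steps were tested on simulated data. The labels do not say that libraries of a bulk group came from separate animals, so p-values measure the spread between these libraries.

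All 7 members are given, up to 4 genes of each pathway list by their highest level in any class, and the 10 genes most like the members. The clustering of all cells outside the hormone clusters, the ratio without C1qa, the cells left out for 10 or more class II UMIs, the scaling by total UMIs, the share of the library level, the split of the lymphocyte cluster, the spacing of the boxes and the block fit's unblocked counterpart were chosen after seeing the data. So was the use of stromal-like Fbn1 cells as the level against which hormone cells were read.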

Additional observations from a re-analysis of the deposited data

Results flagged for a closer look

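Among 23 genes examined in the 5 γ-cell libraries of the bulk data, 7 had a library whose gap to the nearest of the others was large for the range of the 5. Chance gives about 1 in 20 for a single gene, and 5 of the 7 were set apart by the same library, so the count is not set against that rate. In the fifth γ-cell library Lyz2 stood at 190 CPM (nearest library 21.1), C1qb at 20.4 (2.06), C1qc at 19.4 (1.33) and Fcer1g at 3.62 (1.70), while Jak2 was low at 31.2 (49.1). Rfxank was lowest in the second γ-cell library, at 10.7 (11.4), within a narrow range, and Socs1 high in the third, at 5.74 (2.46). None of the 7 class II genes was among them.

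The summed class II level was lower in Ins2+ than in Gcg+ cells in YFP- 1, with a log2 ratio of -0.68, and higher in YFP- 2, at 0.37. Between Sst+ and Gcg+ cells the log2 ratios were -0.20 and 0.53. These differences between the libraries were not tested. In YFP- 2, 5.33% of the class II UMIs, 2670 in all, lay in the 66 cells marked as doublets and left out.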

How the results depend on the processing

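Of the 7 members in bulk, 1 was called with DESeq2, 1 with RLE size factors, 2 with upper-quartile normalization, 2 with no filter and 1 with filterByExpr. Over all genes the calls were 6305, 6296 and 6801 of 17926 in the first 3 settings. They were 7590 of 31210 with no filter and 6194 of 16969 with filterByExpr. With so few members, these calls do not set the members apart from all genes. At a log2 difference of 0.5, 8730 genes and 0 members were called. Leaving out 1 library gave 0 to 3 members and 5482 to 6255 genes. The sign turned for H2-Eb1 (-0.16) and H2-DMa (-0.12) with upper-quartile normalization, for H2-Eb1 without the fifth γ-cell library (-0.11) or the third δ-cell library (-0.33), for H2-DMa without the latter (-0.23) and for H2-Ab1 without the first δ-cell library (0.17). Over the libraries left out in turn, H2-Ab1 ranged from -1.07 to 0.17, H2-Eb1 from -0.33 to 1.20 and H2-DMa from -0.23 to 0.90. The shared numbers 1 to 3 did not pair the libraries (correlations -0.10, 0.07 and -0.27). With the replicate block 5383 genes and 0 members were called, against 5989 and 0 for the same libraries with no block, where H2-DMa stood at -0.075.

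In the order Gcg+, Ins2+ and Sst+ against Ppy+, Ins2+ and Sst+ against Gcg+, and Ins2+ against Sst+, DESeq2 called 640, 1503, 712, 1384, 799 and 969 genes, and thinned cells 302, 477, 372, 524, 394 and 310. Without the experiment as a replicate block 678, 1808, 681, 1643, 792 and 1031 genes were called. With total UMIs 2410, 4807, 4234, 7016, 1735 and 7188 were called, and the splits of higher and lower went from 726 and 608 to 2142 and 268, 1470 and 1254 to 640 and 4167, 693 and 534 to 4071 and 163, 1198 and 1087 to 321 and 6695, 653 and 575 to 1462 and 273, and 815 and 747 to 146 and 7042. Between Ins2+ and Gcg+ cells 0 members were called with DESeq2, total UMIs, no replicate block, thinning, cells with a reference gene UMI left out or cells with 10 or more class II UMIs left out. Between Ins2+ and Sst+ cells 0 were called with total UMIs, no replicate block, thinning and cells with a reference UMI left out (992 genes), and 3 with no filter (1598 of 18170 genes). Against Ppy+ cells the count was 0 for Gcg+ and Sst+ without the replicate block.

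With total UMIs the sign turned between Ins2+ and Gcg+ cells for H2-DMa (-0.97) and Cd74 (-0.013), between Sst+ and Gcg+ for H2-DMa (0.35) and Cd74 (0.057), and between Ins2+ and Sst+ for H2-Aa (-0.62), H2-Ab1 (-0.56), H2-Eb1 (-0.52), H2-DMa (-1.32) and Cd74 (-0.069). Without the replicate block H2-DMa was at -0.031 between Ins2+ and Gcg+ cells. Between Sst+ and Gcg+ cells H2-Aa, H2-Ab1 and H2-Eb1 were at -0.52, -0.11 and -1.28 without cells with a reference UMI and at -0.52, -0.0088 and -0.82 without cells with 10 or more class II UMIs, H2-Aa and H2-Eb1 at -0.10 and -0.13 after thinning, and Cd74 at 0.077 with doublets kept.

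The shares of cells with a class II UMI were 0%, 0.535%, 4.46% and 16.1% after thinning and 0%, 0.535%, 10.2% and 33.0% for at least 2 UMIs, and 3.93% in YFP+ 1 over every cell of the hormone's clusters. Class II UMIs per UMI of the myeloid genes were 1.36, 2.50, 8.96 and 14.6 with Tyrobp and Fcer1g alone and 1.07, 1.74, 4.08 and 4.36 without C1qa. They were 0.993 and 4.10 in the YFP- libraries with C1qa, C1qb and C1qc alone. For cells with at most 2 class II UMIs and with C1qa included, they were 0.0913, 0.705 and 0.9496 in YFP+ 2, YFP- 1 and YFP- 2. The values over all monohormonal cells with C1qa included were 0.183, 0.828 and 2.35 in these libraries. The Xcr1 cluster stood at 54086 CPM with class II genes kept for clustering. The cause of these shifts was not tested. With 2 libraries of each fraction, and 15 and 40 class II UMIs in Ppy+ cells of YFP+ 1 and YFP+ 2, depth limits what can be read of γ-cells.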
